A study of Mus musculus with 9 samples.

Results

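Voltage-gated ion channel genes were followed through RIP-seq of p-UPF1 in N2A cells, a mouse neuroblastoma line. The members are the genes of the deposited table whose symbol begins with Scn and a number, with Cacna, Cacnb or Cacng, or consists of Kcn, further letters and a number. These were 132 of 54325 genes, chosen by symbol and not by any measured value. Of the 132 genes, 53 had at least 10 counts summed over Input and p-UPF1 IP and were tested, 48 had fewer counts, and 31 had 0 counts, also in the rIgG IP. The symbols cover more than voltage-gated pores. They take in subunits that accompany pores, the Kcnn genes of calcium-activated potassium channels, and 29 genes (9 of them tested) of the inward rectifier and two-pore-domain families, which have no classical voltage sensor.

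All 9 libraries came from N2A cells given okadaic acid, a phosphatase inhibitor, at 200 nM for 2 h, so that there was no untreated group. RNA was recovered with antibody to p-UPF1 (p-UPF1 IP, n = 3), with control rabbit IgG (rIgG IP, n = 3) or taken without IP (Input, n = 3), then cleaved with RNase I so that short fragments were sequenced. Nothing in the labels says whether the 3 libraries of a group came from separate cultures, so that p-values measure the spread between these libraries only. Total counts were 25184464 to 29857955 in Input, 5312526 to 6246110 in the p-UPF1 IP and 79010 to 474491 in the rIgG IP. Of these, the channel genes held 4712 to 4992, 1451 to 1986 and 16 to 76 counts per library. The floor of 3 counts was at most 0.119 CPM (counts scaled to a common library total) in Input and 0.565 in the p-UPF1 IP, but 6.32 to 38.0 in the rIgG IP, and covers counting error only. Of 11 neuroblastoma and sympathetic neuron markers, 9 had at least 10 counts in every Input library and Dbh had 3 to 13. Of 8 neuron markers, 6 had at least 10 counts in every Input library, while Nefl was at 0 and Nefm at 0 or 1. Markers of astrocytes (at most 2 counts per Input library in all), leukocytes (at most 4) and hepatocytes (0) were at or near 0, and those of oligodendrocytes summed to 37 to 53, mostly Mbp.

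Ion channels set the electrical behavior of neurons. Sodium channels (Scn) start the action potential, calcium channels (Cacn) turn depolarization into calcium entry, and potassium channels (Kcn) bring the membrane back to rest. UPF1 is the RNA helicase at the center of nonsense-mediated mRNA decay (NMD), and its phosphorylated form gathers on RNAs that undergo NMD. A stop codon that lies well upstream of the last exon-exon junction is a classical trigger of NMD.

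Sequence sets a limit on how well some members can be told apart by short fragments. Scn1a, Scn2a, Scn3a and Scn9a lie together on chromosome 2 and are close copies. Of the 35-nt windows of the most-counted annotated transcript, 15.4% in Scn2a, 11.4% in Scn3a, 8.49% in Scn1a and 6.88% in Scn9a also occur in another gene. A fragment from such a window could be counted for any of these genes.

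In Input, 10 genes held 60.1% of the 14613 counts of the family. Per kb of the most-counted annotated transcript, Cacna1b, the pore of the N-type calcium channel, had the highest level at 3.81 ± 0.361 CPM per kb (SD, n = 3). Cacnb3, a cytoplasmic beta subunit of calcium channels, followed at 3.36 ± 0.483, and the libraries of these genes overlapped. Cacng7 (2.70 ± 0.201), a transmembrane subunit of the gamma family, and Kcnh2 (2.63 ± 0.291), the ERG potassium channel, overlapped each other, and Cacng7 lay below every Cacnb3 library while Kcnh2 reached into its range. Then came Cacng3 at 2.37, Kcnab1 at 2.04, Scn3b at 2.00, Scn9a at 1.93, Kcnn2 at 1.75 and Kcnk3 at 1.70 CPM per kb, where each gene from Cacng3 on overlapped the next in this order. Each level is a mean of CPM scaled by TMM over the 3 Input libraries. The length used for Cacnb3 is that of a retained-intron transcript. Those used for Cacna1b (6984 nt) and Kcnn2 (1725 nt) are of transcripts annotated with coding sequence alone. Longer transcripts of these genes have 9736 nt (Cacna1b) and 3546 nt (Kcnn2). The places of Cacna1b, Cacnb3 and Kcnn2 in this order, the first place included, therefore depend on the transcript chosen.

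The first comparison asked which channel RNAs were recovered with p-UPF1 beyond their share of Input. By edgeR's quasi-likelihood test with Benjamini-Hochberg adjustment over all genes, 13 of 53 channel genes were enriched (log2 fold change above 1, adjusted p under 0.05), a share of 24.5% against 17.3% of the 16919 genes tested. Only 6 (11.3%) were depleted past the same thresholds, against 26.5% of all genes. Without the fold threshold, 21 members were higher (39.6%, against 26.3% of all genes) and 11 were lower (20.8%, against 35.7%). The median log2 fold change was 0.24 over the tested members and -0.42 over all genes tested. Above 0 lay 34 of the 53 members, against 40.6% of all genes tested. Scaling by library totals in place of TMM moved all genes up by 0.41 (log2) at the median, which left 18 members enriched and 1 depleted, against 24.3% and 18.7% of all genes.

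**Figure D1:**
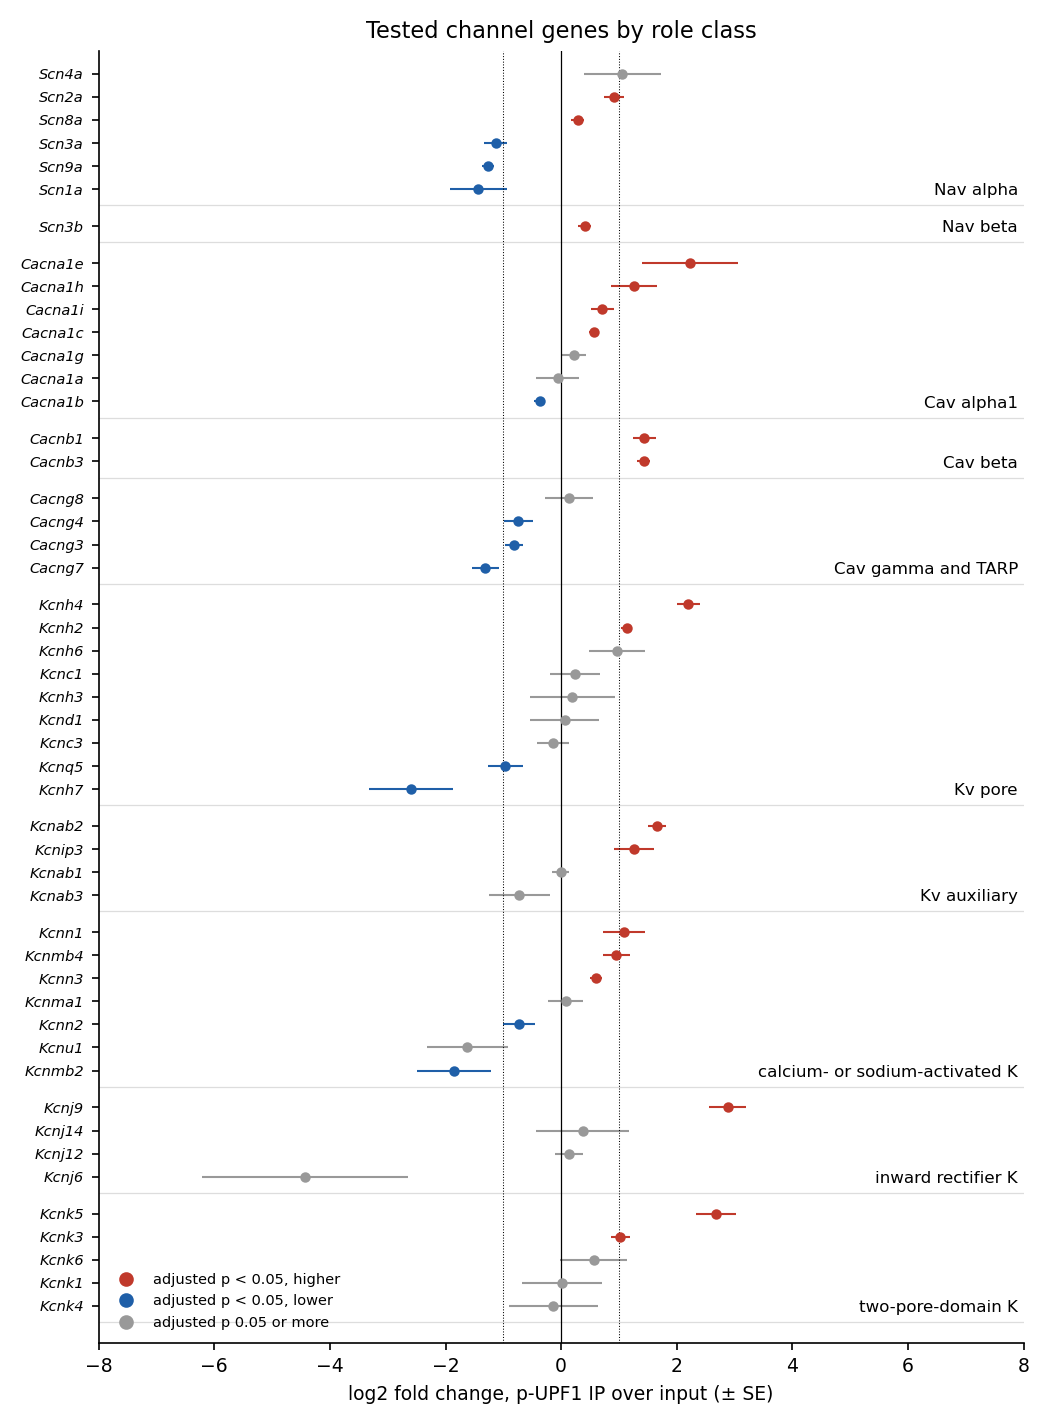
Log2 fold change of p-UPF1 IP over Input (x axis; points, with bars of ± 1 SE) for 49 of the 53 tested channel genes, grouped by role class on the y axis; color gives the side of adjusted p of 0.05 and dotted lines mark a log2 fold change of 1 in either direction. Both tested beta subunits of calcium channels lie above 1, while 3 of the 4 tested gamma subunits lie below 0 and passed the test (only Cacng7 with library totals).

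The sodium channel pores moved in both directions. Of the 10 alpha subunit genes, 6 were tested, of which 2 were higher, 3 lower and 1 (Scn4a, of skeletal muscle) did not pass. Scn9a, the most-counted of them and known for its part in pain-sensing neurons, had 20.4, 17.8 and 18.8 CPM in Input and 8.14, 8.65 and 7.05 CPM in the p-UPF1 IP. The groups did not overlap, and the log2 fold change was -1.26 ± 0.11 (SE, adjusted p = 2.86e-06). Scn3a, a channel of the fetal brain, went from 9.26, 8.44 and 7.23 CPM to 2.54, 3.71 and 4.93 CPM, again without overlap (log2 fold change -1.13 ± 0.20, adjusted p = 0.000628). Scn1a, the pore of inhibitory interneurons, gave Input counts of 35, 30 and 38 but p-UPF1 IP counts of 1, 8 and 2 (log2 fold change -1.43 ± 0.50, adjusted p = 0.0297). The groups did not overlap after scaling, but the call was lost with library totals (adjusted p = 0.113) and on leaving out any one of replicates 1 and 3 of Input or of the p-UPF1 IP (adjusted p = 0.0648 to 0.115).

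Scn2a, a main sodium channel of excitatory neurons, moved the other way. It had 2.87, 2.55 and 3.33 CPM in Input and 5.93, 4.81 and 5.92 CPM in the p-UPF1 IP (log2 fold change 0.92 ± 0.17, adjusted p = 0.000978). Scn8a, the pore of mature axon initial segments, had 8.17 to 9.56 CPM in Input and 10.0 to 11.4 in the p-UPF1 IP. Its log2 fold change was 0.29 ± 0.11, with an adjusted p of 0.0455 that no longer passed in 8 of 13 alternative fits, among them those that left out one of replicates 1 and 3 of Input or of the p-UPF1 IP (0.0562 to 0.103). The windows shared among Scn1a, Scn2a, Scn3a and Scn9a bear on these values, and their part in the differences was not tested. Of the beta subunits, Scn3b was higher by 0.41 ± 0.11 on the log2 scale (adjusted p = 0.00887), with 7.78 to 8.75 CPM in Input and 9.83 to 12.1 in the p-UPF1 IP.

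Of 7 tested calcium channel pores, 4 were higher and 1 was lower. Cacna1b, the pore with the most counts, was the lower one, and the change was small. It had 29.2, 26.6 and 24.1 CPM in Input and 20.3, 20.9 and 20.4 CPM in the p-UPF1 IP (log2 fold change -0.37 ± 0.09, adjusted p = 0.00516), a direction that turned with library totals (0.03, adjusted p = 0.819). Cacna1c, the L-type pore of heart and brain, had 11.9 to 12.5 CPM in Input and 16.8 to 19.5 in the p-UPF1 IP (log2 fold change 0.57 ± 0.09, adjusted p = 0.000192). The T-type pores, which open near rest, were Cacna1h at a log2 fold change of 1.26 ± 0.40 (adjusted p = 0.0191, but 0.0526 without Input replicate 1 and 0.0564 without p-UPF1 IP replicate 2), Cacna1i at 0.71 ± 0.20 (adjusted p = 0.00918) and Cacna1g at 0.23 ± 0.21, which did not pass. Cacna1e, the R-type pore, passed at a log2 fold change of 2.23 ± 0.83 (adjusted p = 0.0393) on Input counts of 1, 1 and 2 and p-UPF1 IP counts of 2, 3 and 1, so that this value rests on few counts and fell under the count minimum when any library was left out. Cacna1a, the P/Q-type pore, did not pass (-0.06 ± 0.37).

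Of the calcium channel beta subunits, 2 were tested and both were higher. Beta subunits bind the pore inside the cell and aid its delivery to the membrane. Cacnb3 had 9.09, 10.5 and 7.83 CPM in Input and 24.2, 24.0 and 25.2 CPM in the p-UPF1 IP (log2 fold change 1.43 ± 0.11, adjusted p = 1.4e-06). Cacnb1 had 2.70, 2.05 and 2.49 CPM against 5.09, 6.73 and 7.75 CPM (log2 fold change 1.44 ± 0.19, adjusted p = 8.69e-05). For both genes every p-UPF1 IP library lay above every Input library, but the share of all genes with such a gap is not given here. The other members of the beta class were not tested.

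The Cacng genes encode transmembrane proteins of which Cacng3, Cacng4, Cacng7 and Cacng8 are best known as partners of AMPA receptors (TARPs). Of these, 3 were lower and Cacng8 did not pass (0.14 ± 0.41). Cacng7 had 6.22, 5.45 and 6.22 CPM in Input and 1.19, 2.88 and 2.96 CPM in the p-UPF1 IP (log2 fold change -1.31 ± 0.24, adjusted p = 0.000812). Cacng3 went from 6.46 to 6.74 CPM in Input to 3.10 to 4.53 CPM (-0.81 ± 0.16, adjusted p = 0.00112), and Cacng4 had a log2 fold change of -0.74 ± 0.26 (adjusted p = 0.028). Input and p-UPF1 IP did not overlap for any of the 3, but the share of all genes without overlap is not given here. With library totals the 3 genes kept their sign but only Cacng7 passed (adjusted p was 0.0699 for Cacng3 and 0.307 for Cacng4). Cacng4 also failed when any single library but Input replicate 3 or p-UPF1 IP replicate 3 was left out (0.0502 to 0.106). The 4 alpha2delta genes, which encode extracellular subunits, held 13 counts in Input together, and none was tested.

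**Figure D2:**
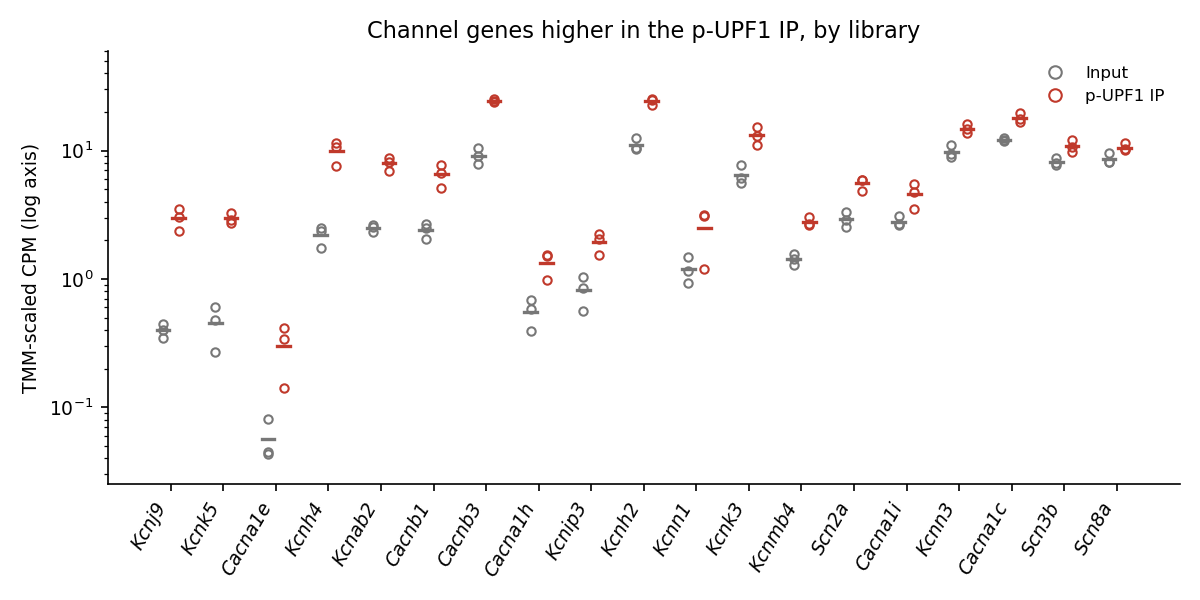
TMM-scaled CPM (log axis) of 19 of the 21 channel genes that were higher in the p-UPF1 IP, ordered by log2 fold change; circles are single libraries (gray, Input; red, p-UPF1 IP; n = 3 each) and short bars are means. The gap between the groups narrows from Kcnj9 at the left, with 0.348 to 0.447 CPM in Input and 2.37 to 3.52 in the p-UPF1 IP, to Scn8a at the right.

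Among 12 tested voltage-gated potassium channel pores, 4 were higher and 2 were lower. Kcnh4, an ELK-type pore of the ether-a-go-go family, had 2.48, 2.37 and 1.73 CPM in Input and 7.63, 10.7 and 11.6 CPM in the p-UPF1 IP (log2 fold change 2.20 ± 0.20, adjusted p = 4.53e-06). Kcnh2, the ERG channel that shapes repolarization in heart and neurons, had 10.4, 12.5 and 10.3 CPM against 22.7, 25.4 and 24.7 CPM (1.13 ± 0.10, adjusted p = 3.87e-06). A relative in the same family went the other way. Kcnh7 gave Input counts of 16, 15 and 14 and p-UPF1 IP counts of 1, 1 and 0, a ratio of 0.154 after scaling with a 95% counting interval of 0.0181 to 0.59 (exact Clopper-Pearson, adjusted p = 0.0104 by edgeR).

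The Kcnq genes encode pores of the M current, which restrains repetitive firing. Kcnq5 was lower, with 2.09 to 2.68 CPM against 0.678 to 1.51 CPM (-0.97 ± 0.30, adjusted p = 0.0174). Kcnq5 did not pass with library totals (0.15) or without Input replicate 2 (0.0525) or p-UPF1 IP replicate 1 (0.0652).

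Of the cytoplasmic partners of these pores, Kcnab2 and Kcnip3 were higher. Kcnab2, a beta subunit of Shaker-type channels, had 2.65, 2.55 and 2.33 CPM in Input and 8.82, 8.10 and 6.91 CPM in the p-UPF1 IP (log2 fold change 1.66 ± 0.15, adjusted p = 5.16e-06). Its paralog Kcnab1 had 7.57, 5.72 and 6.54 CPM against 7.12, 6.04 and 6.63 CPM. Those groups overlapped, and the log2 fold change was -0.01 ± 0.15 (adjusted p = 0.963, but 0.40 and adjusted p = 0.0401 with library totals). Kcnip3, a calcium sensor also known as DREAM and calsenilin, had a log2 fold change of 1.26 ± 0.34 (adjusted p = 0.00914).

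**Figure D3:**
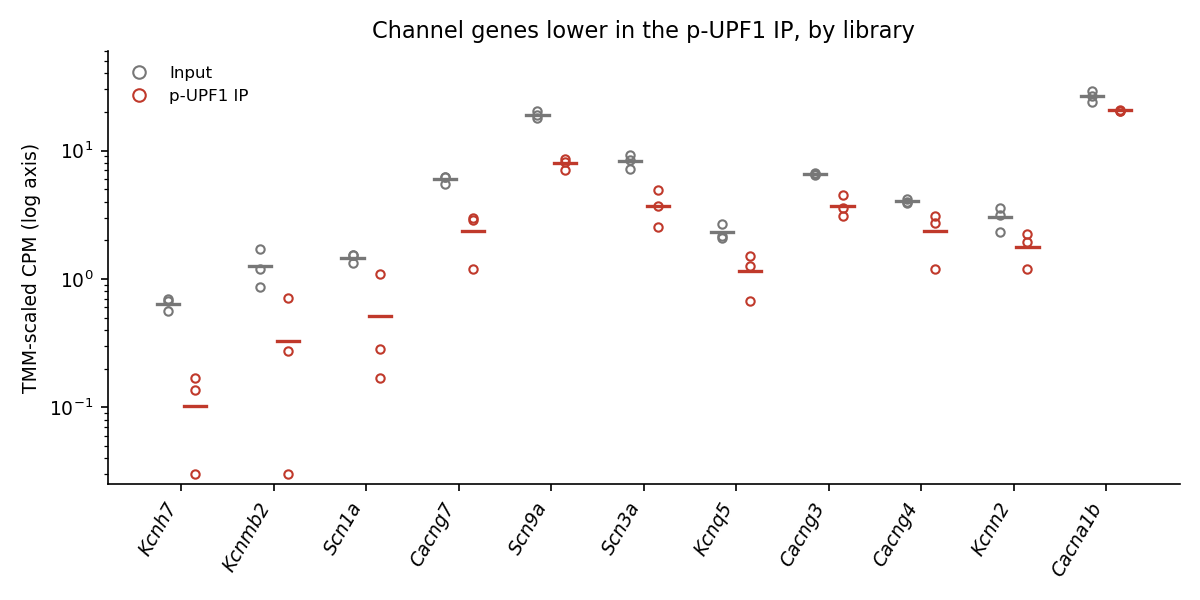
TMM-scaled CPM (log axis) of the 11 channel genes that were lower in the p-UPF1 IP, ordered by log2 fold change; circles are single libraries (gray, Input; red, p-UPF1 IP; n = 3 each), short bars are means, and a count of 0 is drawn near the bottom of the axis. For 8 of these genes the lowest circle of the p-UPF1 IP is library 1, as for Cacng7 with 1.19 CPM.

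Calcium-activated potassium channels help to end bursts of firing. The class of calcium- or sodium-activated potassium channels, which takes in Kcnu1 by symbol alone, gave 3 higher and 2 lower genes of 7 tested. The small-conductance channel genes differed among themselves. Kcnn3 had 11.1, 8.98 and 9.40 CPM in Input and 13.7, 16.2 and 14.7 CPM in the p-UPF1 IP (log2 fold change 0.60 ± 0.11, adjusted p = 0.000883), and Kcnn1 had a log2 fold change of 1.09 ± 0.36 (adjusted p = 0.0247). Kcnn2 had 3.13, 3.57 and 2.33 CPM against 1.19, 1.92 and 2.26 CPM (-0.72 ± 0.28, adjusted p = 0.0432). That call was lost in 7 of 13 alternative fits. These were DESeq2, all 9 libraries in one fit, library totals (0.37) and the fits without Input or p-UPF1 IP replicates 1 or 2 (0.095 to 0.166). The p-UPF1 IP value of Kcnn1 was 1.19 CPM in library 1, within the Input range of 0.923 to 1.48, and 3.16 and 3.10 CPM in the other libraries. Its call was lost without Input replicate 3 (0.0606) or p-UPF1 IP replicate 2 (0.101) or 3 (0.0947). Of the BK channel and its beta subunits, Kcnmb4 was higher (0.95 ± 0.23, adjusted p = 0.00443), Kcnmb2 was lower (-1.85 ± 0.64, adjusted p = 0.029, on p-UPF1 IP counts of 0, 2 and 5, with 0.0537 to 0.0963 on leaving out one of Input replicates 2 and 3 or of p-UPF1 IP replicates 1 and 2, and 0.079 with library totals) and the pore gene Kcnma1 did not pass (0.08 ± 0.30).

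The largest fold change of a tested member past the threshold belonged to Kcnj9, which encodes a G protein-gated inward rectifier. It gave Input counts of 8, 10 and 10 and 14, 22 and 25 counts in the shallower p-UPF1 IP libraries, or 0.348, 0.447 and 0.402 CPM against 2.37, 3.02 and 3.52 CPM (log2 fold change 2.88 ± 0.32, adjusted p = 2.05e-05). Kcnj6, which encodes another subunit of these channels, gave Input counts of 2, 4 and 6 and was at 0 in every IP library, and did not pass (adjusted p = 0.0597). Kcnj12 did not pass either (0.14 ± 0.24). Two-pore-domain channels carry the resting leak of potassium. Of these, Kcnk5 had 0.609, 0.268 and 0.482 CPM in Input and 2.88, 2.75 and 3.24 CPM in the p-UPF1 IP (2.68 ± 0.35, adjusted p = 6.79e-05). Kcnk3, the acid-sensitive TASK channel, had 6.13, 7.77 and 5.54 CPM against 13.1, 15.4 and 11 CPM (1.02 ± 0.16, adjusted p = 0.000273).

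The rIgG IP measures RNA that comes down without the p-UPF1 antibody. Its libraries held 125 counts of channel genes in all and no more than 16 for any one gene, so that most members could be compared with it only roughly. Set against it, 5 of 43 tested members were enriched with p-UPF1, against 17.5% of all genes tested, and 0 were depleted, against 5.34% (DESeq2 also called 0 depleted). At an unadjusted p under 0.05 by edgeR, 10 were higher and 0 lower, but the share of all genes at that threshold is not given here. Most genes lay above 0 in this comparison, 36 of the 43 members and 69.1% of all genes. Of these members, 13 were at 0 in the rIgG IP and reached the count minimum through the p-UPF1 IP alone. Their sign was therefore fixed beforehand, and these counts of members on either side are descriptions only. Kcnh2 had 5, 2 and 1 counts in the rIgG IP (log2 fold change 1.47 ± 0.43, adjusted p = 0.0133) and Cacnb3 had 5, 4 and 1 (1.16 ± 0.40, adjusted p = 0.0362). Kcnab2 had 0 in all 3, which puts it at least 2.40-fold higher with p-UPF1, with the floor of 3 counts taken over the group (adjusted p = 0.00801). Kcnn3 had 3 rIgG IP counts in all, a ratio of 4.55 (95% counting interval 1.54 to 22.2), and Scn8a had 2, a ratio of 4.80 (1.31 to 39.9), with adjusted p of 0.0184 and 0.0456 by edgeR. DESeq2, RLE size factors, filterByExpr and a replicate block each called only Kcnab2, and without rIgG IP replicate 1, the deepest, only Kcnn3 was called.

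The median log2 fold change of the 43 members was 1.16, against 0.89 over all genes, but with the 13 members at 0 in a group put at their bounds it was 0.18. Between the rIgG IP and Input, 0 of 51 members tested were enriched and 0 were depleted by edgeR, against 0.584% and 0.313% of all genes. An unadjusted p under 0.05 by edgeR was found for 3 members, and the share of all genes at that threshold is not given here. DESeq2 also called 0 in both directions.

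The counts were deposited per transcript, and Salmon had divided each gene's short fragments among its transcripts. The spread between replicates was wide at this level, with a biological coefficient of variation of 96.7% against 12.4% for genes. Of 143 tested transcripts of channel genes, 8 were enriched over Input, against 8.55% of 42616 transcripts, and 10 were depleted, against 16.2%. Of the 8 enriched ones, 6 were at 0 in Input, and of the 10 depleted ones, 7 were at 0 in the p-UPF1 IP. Those transcripts reached the count minimum through the other group alone. With a replicate block, 0 of either set were called. In 4 genes, among them Kcnh2, Scn2a and Scn3a, one transcript was enriched while another was depleted. The share of all genes with such a pair is not given here, so that this count is a description only.

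In Scn2a, transcript ENSMUST00000028377.13 gave Input counts of 9, 17 and 26 and was at 0 in every library of the p-UPF1 IP. ENSMUST00000100067.6 was at 0 in Input and had p-UPF1 IP counts of 23, 32 and 14. By the floor of 3 counts over the group, the first was at least 6.16-fold lower and the second at least 64.7-fold higher. Of the 35-nt windows of either transcript, 0% occur in no other annotated Scn2a transcript. Few fragments could therefore tell these transcripts apart, and the part of their assignment in these differences was not tested. In Scn3a, ENSMUST00000066432.11 gave Input counts of 143, 129 and 139 and was at 0 with p-UPF1, and ENSMUST00000100069.8 was at 0 in Input and had p-UPF1 IP counts of 10, 27 and 26. Their own windows were 12.4% and 2.00%.

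**Figure D4:**
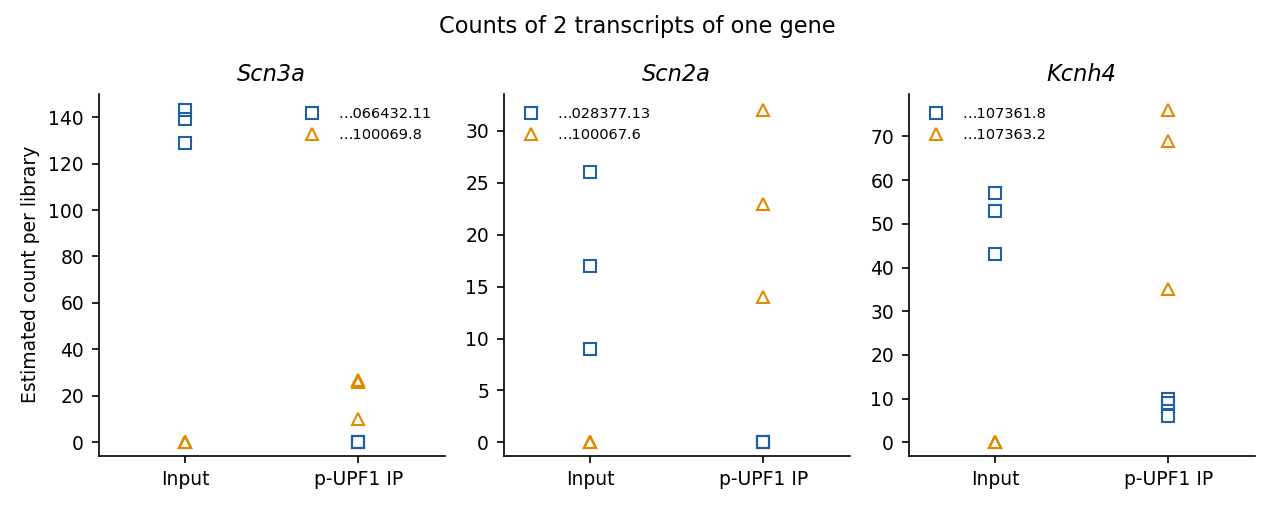
Estimated counts per library (y axis, not scaled for depth) of a pair of transcripts each of Scn3a, Scn2a and Kcnh4 in Input and p-UPF1 IP (n = 3 libraries each); squares and triangles are the transcripts, named by the end of their identifier. In Scn3a and Scn2a the squares are at 0 in every p-UPF1 IP library and the triangles at 0 in every Input library, while in Kcnh4 the squares stay above 0.

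The annotation types 23 channel transcripts as NMD substrates, of which 8 had any count and 3 were tested. Of these, 1 was enriched, and the share enriched of all 3050 tested transcripts of this type is not given here. The enriched one is the Kcnn1 transcript ENSMUST00000212243.1, at 0 in Input and with p-UPF1 IP counts of 4, 8 and 10. It was at least 20.6-fold higher (adjusted p = 0.0192 by edgeR, and 0.247 with the replicate block). This transcript reached the count minimum through the p-UPF1 IP alone, so that its direction was fixed beforehand. Its stop codon lies 56 nt upstream of the last exon-exon junction. The last 30 coding bases are shown with the stop codon in capitals (GRCm38, chr8:70846551-70848206, minus strand, a span that includes an intron).

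Kcnn1 stop: caccagcggctcagaagctccgaagtgTGA

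Of the windows of this Kcnn1 transcript 4.10% are its own, and the part of fragment assignment in its counts was not tested. The NMD-typed transcripts of Cacna1b (-0.30 ± 1.19) and Cacna1i (0.50 ± 1.30) did not pass, and each had 0 counts in 1 p-UPF1 IP library. In the most-counted annotated transcript, a junction more than 50 nt downstream of the stop codon was annotated for 1 of the 48 tested members with a coding transcript. That member was Kcnh4, at 310 nt. This transcript, ENSMUST00000107361.8, gave Input counts of 57, 53 and 43 and p-UPF1 IP counts of 10, 9 and 6 and did not pass (log2 fold change -1.10 ± 0.41, adjusted p = 0.103). Kcnh4's other tested transcript, ENSMUST00000107363.2, with a junction at 314 nt, was at 0 in Input and had p-UPF1 IP counts of 35, 69 and 76. It was enriched by edgeR (adjusted p = 0.00222), but not with the replicate block (0.0728). It too reached the count minimum through the p-UPF1 IP alone. Own windows made up only 0.996% of ENSMUST00000107361.8 and 6.06% of ENSMUST00000107363.2. The part of fragment assignment in their difference was not tested. Retained-intron transcripts lay lowest, with a median log2 fold change of -2.03 over 13 tested, against -1.06 for all 7765 of this type. Of the 13, 2 were depleted, and the share depleted of all transcripts of this type is not given here. The 107 protein-coding ones had a median of -0.24, against -0.79 for all 23817.

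Base composition was compared as a description. It was taken from the annotated transcript with the most Input counts, as were lengths and junctions. For Kcnab2 and Cacna1a a transcript absent from the annotation used here had more. The median GC content was 57.2% (45.0% to 63.2%) in the 21 higher genes, 46.4% (39.6% to 58.1%) in the 11 lower genes and 54.6% in the 21 that did not pass. Across the 53 members, GC content and log2 fold change had a Pearson r of 0.48 and a Spearman rho of 0.50. Across the 16897 tested genes with an annotated transcript these were 0.29 and 0.36. For transcript length the Spearman rho was 0.05 over the members and 0.22 over all genes. These are descriptions across genes, which share the same 6 libraries and are not independent replicates. Whether base composition has a part in the fold changes was not tested.

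**Figure D5:**
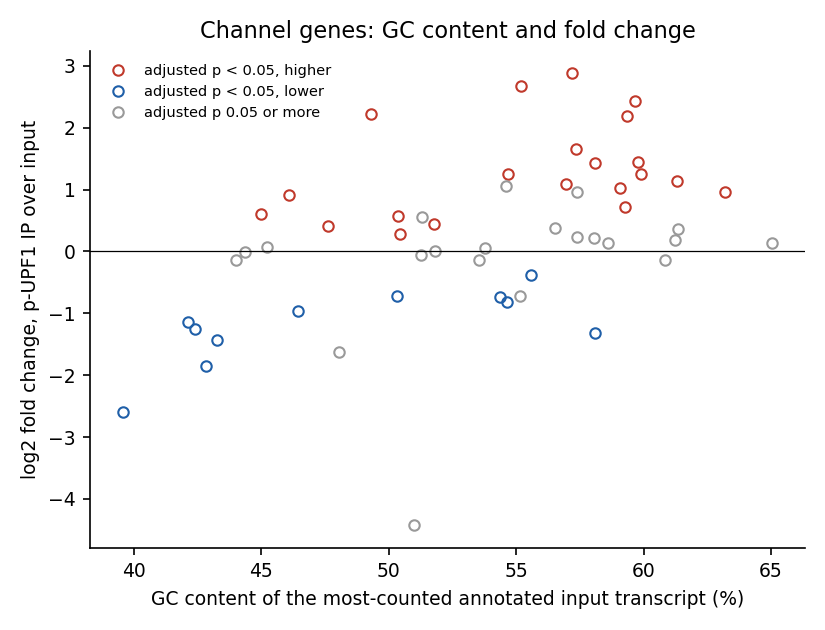
GC content in percent of the most-counted annotated Input transcript (x axis) and log2 fold change of p-UPF1 IP over Input (y axis) for the 53 tested channel genes (1 circle per gene; color gives the side of adjusted p of 0.05). All members below 44% GC lie below 0, from Kcnh7 at 39.6% to Scn1a at 43.3%. This cut was not set beforehand, and the share of all genes under it that lie below 0 is not given here. The point at the bottom is Kcnj6, which had 0 counts in the p-UPF1 IP.

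Other genes of excitability were listed for comparison, namely pacemaker and leak channels, partners of sodium channels, calcium stores, chloride channels, pumps and exchangers. Of 57, 49 were tested. In this list 12 genes were higher (24.5%, against 26.3% of all genes tested) and 16 were lower (32.7%, against 35.7%), shares near those of all genes. Past the fold threshold 10 were enriched (20.4%, against 17.3%) and 6 depleted (12.2%, against 26.5%), and the median log2 fold change was -0.06, against -0.42. Ryr1, the calcium release channel of muscle, gave Input counts of 49, 53 and 54 and p-UPF1 IP counts of 66, 91 and 77 (log2 fold change 2.37 ± 0.13, adjusted p = 1.15e-07). Stac (2.08 ± 0.14), an adaptor of calcium channels, and Sptbn4 (2.07 ± 0.16), a spectrin of the axon initial segment, were enriched too. Calm2, a calmodulin gene, gave Input counts of 967, 1014 and 1263 and p-UPF1 IP counts of 48, 58 and 61 (-2.48 ± 0.11, adjusted p = 1.85e-08). Ryr3 had 33 Input counts and 0 with p-UPF1, at least 3.17-fold lower, and Fgf12 had 31 and 2, a ratio of 0.224 (95% counting interval 0.0259 to 0.879).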

How the data were processed

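RIP-seq was analysed for 9 libraries of N2A cells. The authors quantified transcripts with Salmon 0.13.1 after mapping with STAR to GRCm38, and deposited estimated counts per transcript, whole numbers not scaled for depth, for 140658 transcripts. Counts were summed per gene symbol, and every column was used. Groups were set against each other by the quasi-likelihood test of edgeR 4.0.16 (R 4.3.3) after TMM scaling, in fits of 6 libraries, over features whose counts summed to 10 or more. The SE of a log2 fold change was taken from its F statistic. GENCODE M21, which matched 139921 transcripts and all 132 members, gave positions, types, sequence and GC content; the paper names a later release. The procedure was tested on simulated data. Replicate libraries differed by more than sampling noise (chi-square per degree of freedom 3.62 to 15.6 over genes). The members and lists were chosen with earlier results of these data known. Genes named are the 15 with the largest change in each direction, the 10 highest in Input per kb, the most-counted of each class and those past the thresholds over the rIgG IP; other members named were chosen after their values were seen. The fits were repeated by DESeq2 1.42.0, by RLE factors or library totals, with filterByExpr or no count filter (at least 1 count), over all 9 libraries together, with a replicate block, and without each library. Some items are not reported here.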

Additional observations from a re-analysis of the deposited data

How the results depend on the processing

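In the p-UPF1 IP over Input, the number of enriched members (13) was 11 to 18 under the 13 alternatives. Library totals gave 1 depleted (Kcnh7) and 4 lower members (Cacng7, Kcnh7, Scn3a and Scn9a), in place of 6 and 11, and a median log2 fold change of 0.64. Without a count filter, which adds members of 1 to 9 counts (101 tested), the median was -0.0164, against -1.42 over all genes in that fit. Leaving out 1 library gave 2 to 6 depleted and 6 to 10 lower members. The smallest counts came without p-UPF1 IP replicate 1, where Kcnh7 and Scn9a were depleted, and without Input replicate 2 there were 7 lower members.

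Over the rIgG IP, where 5 members were enriched, the number was 6 with all 9 libraries, 4 with no count filter or with library totals, 1 with DESeq2, RLE factors, filterByExpr or the replicate block, and 1 to 4 when 1 library was left out (3 without p-UPF1 IP replicate 1, and 1, 2 and 3 without rIgG IP replicates 1, 2 and 3). Enriched and depleted transcripts numbered 15 and 16 with DESeq2, 15 and 6 with library totals, and 0 and 0 with the replicate block. Depleted transcripts numbered 4 to 16 when 1 library was left out (4, 4 and 5 without Input replicates 1, 2 and 3, and 16 without p-UPF1 IP replicate 3). The cause of these changes was not tested.

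Of the 28 genes named by rule that passed in the p-UPF1 IP over Input, 13 higher and 4 lower ones passed under every alternative that tested them. With library totals Cacna1b (0.0322) turned positive. Kcnab1 (-0.00826) turned positive in 10 of 13 alternatives and passed in 1 of them (library totals, adjusted p = 0.0401). It had 0.00941 with DESeq2, 0.00985 with RLE factors, 0.0194 with all 9 libraries, 0.0172 with filterByExpr, 0.40 with library totals, 0.00266 with the replicate block and -0.0874 to 0.115 when 1 library was left out. Cacna1e lost its call with DESeq2, the replicate block and no filter.

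The replicate numbers come from the labels. Deviations of libraries with one number were hardly correlated (r = -0.0081, 0.0571 and 0.0439 over 10613 genes in the p-UPF1 IP and Input). Counting noise enters these deviations, so that they cannot settle whether libraries with one number share a culture. The replicate block gave 12 enriched, 6 depleted, 19 higher and 11 lower members for p-UPF1 against Input, and 0 and 0 for rIgG against Input. The rIgG IP is limited by its depth, as is every member with few counts.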
